A study of Mus musculus with 10 samples.

Results

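Axon guidance ligands and their receptors were followed on microarrays of the hemibrains of 10 mice. Members were chosen by gene symbol and covered the semaphorins of classes 3 to 7, plexins, neuropilins, ephrins, Eph receptors, netrins, the Unc5 receptors with Dcc, Slits and Robos. Of 18539 genes named on the array, 71 fitted the rule, read by 106 probes, and 65 of them had a value on every array. Among the 71 were 35 ligands and 34 receptors. The remaining 2, Unc50 and Unc5cl, matched by their letters alone and are not netrin receptors. Efna3 and Sema3g, which also fit the rule, had no probe named here.

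Each array carried Cy-5 labelled RNA of the left hemibrain of 1 male C57BL/6J mouse, another mouse for every array, beside a second RNA in Cy-3, always in this dye orientation. No mouse carried a genetic change by the labels. The mice were bought at 3 weeks of age, lived singly and ate either standard lab diet (SD) or a diet enriched in n-3 PUFA by fish oil (FD) for 20 weeks, to 5 months of age. The sources disagree on the diet of each array. By the methods, 4 FD and 3 SD mice were arrayed, fewer than the 10 arrays deposited, and the Cy-3 RNA was a commercial reference. The labels instead give FD for every Cy-5 sample and pooled hemibrains of SD mice for Cy-3, yet their descriptions name these very samples controls. FD and SD were therefore not compared, and values are given as the lowest, the median and the highest log2 ratio (Cy-5 over Cy-3) among the arrays.

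The labelled tissue was checked by marker genes. All 10 neuron markers and all 6 oligodendrocyte markers were at least 2-fold higher in Cy-5 on every array, as were 5 of 6 astrocyte, 5 of 6 endothelial, 4 of 5 choroid plexus and 3 of 6 microglial markers. Of 10 proliferation markers, 9 were at least 2-fold lower in Cy-5 on every array, the exception being Bub1. Of 5 markers of fibroblasts and meninges, Col1a1, Col1a2 and Dcn were lower on every array, Ptgds was higher and Lum was neither. The Cy-5 RNA thus carried the defining markers of brain, and the Cy-3 RNA did not have the makeup of a hemibrain. Every ratio below sets hemibrain against that second RNA, and part of a ratio can come from the dye, since no array had the dyes exchanged. On array C10-434 the share of probes well above background in Cy-5 was 49.8%, against 68.2% to 76.9% on the other arrays, with a median background-subtracted Cy-5 intensity of 28.5 against 60.0 to 171.

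Axon guidance proteins steer growing axons by attraction or repulsion, and in the adult brain many of them remain at synapses, on glia and on vessels. Semaphorins signal through plexins, with neuropilins as coreceptors for most secreted class 3 members. Ephrins are bound to the membrane and meet Eph receptor tyrosine kinases on the neighbouring cell, netrins act through Dcc and the Unc5 receptors, and Slits through Robos.

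On the processed signals, more of the receptors than of the ligands stood higher in the hemibrain RNA. The difference was described and not tested, and it was not seen with normexp background correction. A member was counted as higher or lower when the log2 ratio of its brightest probe was at least 1 or at most -1, a 2-fold difference, on every array with a value. By this count 26 of 71 members (36.6%) were higher in Cy-5, beside 16.5% of 18537 named genes, and 11 (15.5%) were lower, beside 15.6% of named genes. Of the 26 and the 11, 25 and 10 were well above background in each dye on at least some arrays, the exceptions being Dcc, with a ratio of at least 19.4-fold, and Ntn4, whose bound of at least 1.64-fold lower does not reach 2-fold. Among receptors 17 of 34 were higher and 5 lower, with a median log2 ratio of 2.36, and among ligands 9 of 35 were higher and 6 lower, with a median of 0.65. Over all members the median log2 ratio was 0.75, and over all named genes it was 0.06. Fewer cells of a type and less RNA per cell cannot be told apart in RNA of a whole hemibrain. With background subtraction and a floor the split was 27 higher and 4 lower, in place of 26 and 11, and with normexp background correction it was 7 and 3.

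**Figure D1:**
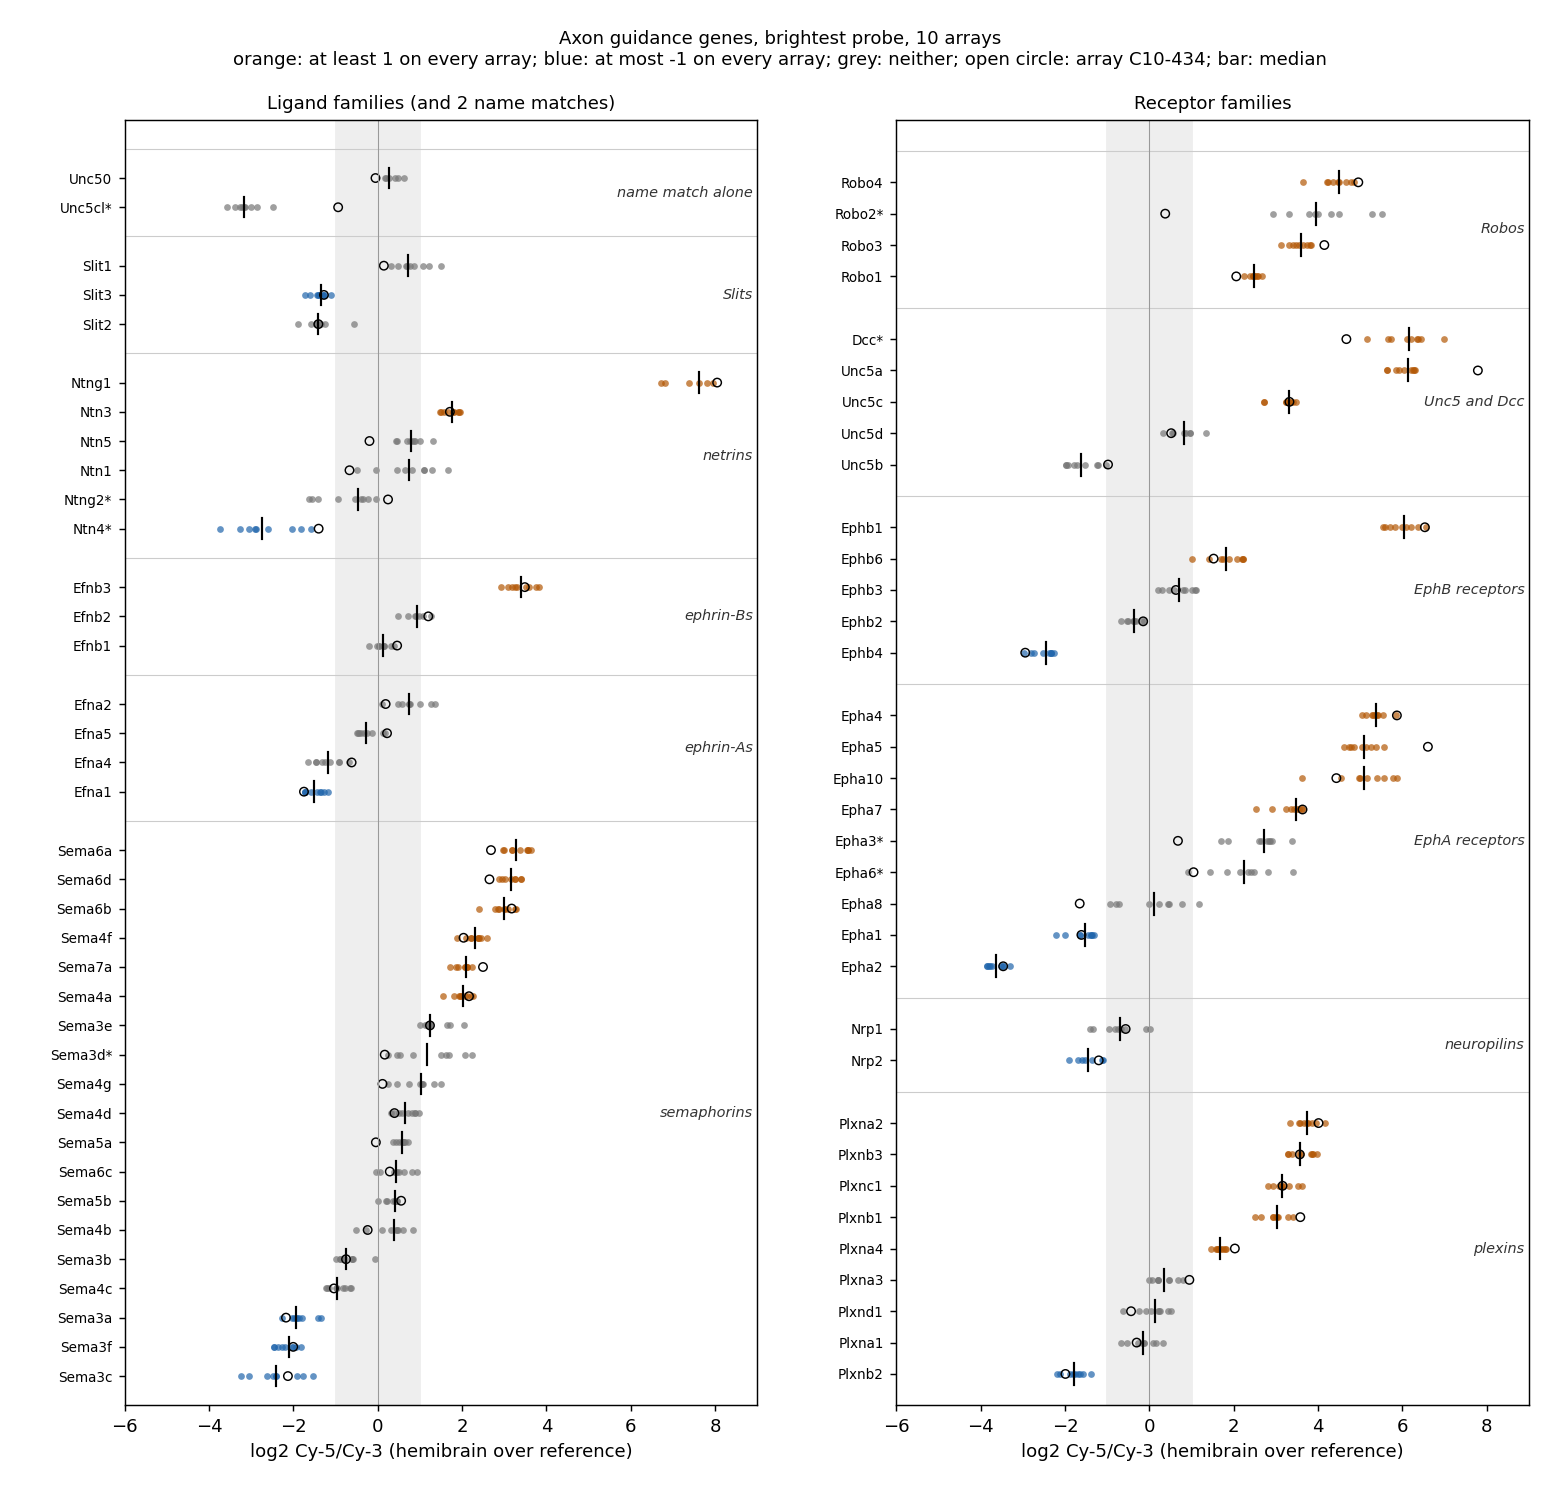
Log2 ratio of hemibrain (Cy-5) to second RNA (Cy-3) of the 71 members, 1 point for each array with a value and a bar at the median, ligand families on the left and receptor families on the right. Orange members were at least 2-fold higher in Cy-5 on every array (26 members), blue ones at least 2-fold lower (11), and grey ones neither (34), with Ntn4 among the blue although its bound was 1.64-fold. Open circles are array C10-434, and an asterisk marks a member that was above background on no array in one of the dyes.

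Most members gave a signal in both dyes. In Cy-5 55 of 71 members were well above background on every array (77.5%, beside 65.6% of named genes), in Cy-3 54 (76.1%, beside 73.2%), and 47 in both. Among these 47 members 18 were higher and 7 lower in Cy-5, beside 18.3% and 16% of 11370 named genes measured in both dyes. Dcc, Robo2, Epha3, Epha6 and Sema3d were not well above background on any array in Cy-3, and Ntn4, Ntng2 and Unc5cl on none in Cy-5. The ratios of these 8 genes have only a bound. For them "at least N-fold" sets the mean of the brighter dye against the lowest signal well above background in the other dye, each channel having been scaled between arrays after loess. With 7 of them at their bound and Ntng2, which had none, left out, the median log2 ratio was 1.75 over the receptors and 0.62 over the ligands.

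**Figure D2:**
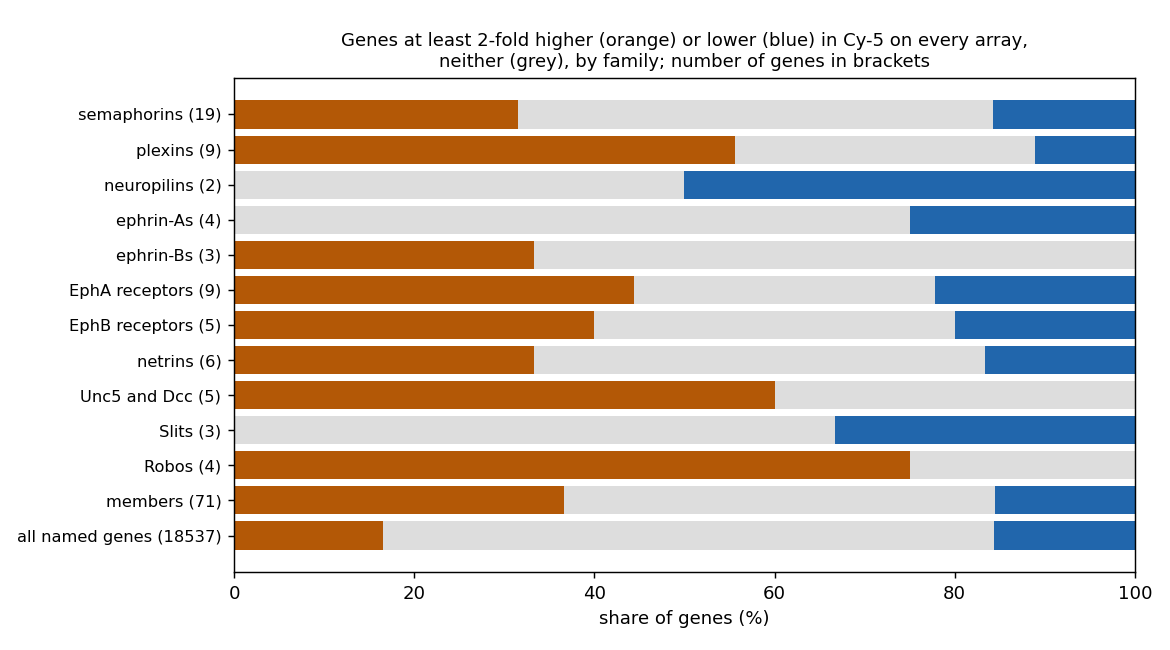
Share of the genes of each family, in percent on the horizontal axis, that were at least 2-fold higher in Cy-5 on every array (orange), at least 2-fold lower (blue) or neither (grey), with the number of genes in brackets. Robos, Unc5 with Dcc and plexins had the widest orange bars, and in the last 2 bars all members stand beside all named genes. The bars are of the processed signals. With normexp no Robo or plexin was higher on every array, and of Unc5 with Dcc only Unc5a was.

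Among the semaphorins, all 3 genes that were lower belonged to the secreted class 3, and 3 of the 6 that were higher to the membrane-bound class 6. Of 6 class 3 members 3 were lower and none higher in Cy-5, with a median log2 ratio of -1.35, whereas 3 of 4 class 6 members were higher, with a median of 3.09. Sema3c was at -3.23, -2.42 and -1.54 (lowest, median and highest) and was above background in Cy-5 on 8 arrays. Sema3f was at -2.46, -2.12 and -1.82, and Sema3a, a repellent that acts through Nrp1, at -2.28, -1.93 and -1.34. On the processed signals all 10 arrays placed these 3 genes at more than 2-fold below the Cy-3 RNA. Their ranges overlap, so they are not ordered. With the floor, Sema3a and Sema3c were no longer at least 2-fold lower on every array, and with normexp none of the 3 was. Sema3b lay between -0.99 and -0.07 with a median of -0.76, and did not reach 2-fold on any array. Sema3e, a ligand of Plxnd1, was the class 3 member furthest toward Cy-5 among those measured in both dyes, at 0.99, 1.24 and 2.05, and missed the threshold on array C10-415 alone. This rests on its brightest probe, and its other probes had medians of -0.45 and -1.78. Sema3d was dim on 6 arrays in Cy-5, and its ratio was at least 1.5-fold higher in Cy-5.

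The class 6 genes Sema6a (2.68, 3.28 and 3.63), Sema6d (2.65, 3.17 and 3.40 on 9 arrays) and Sema6b (2.39, 3.00 and 3.29) had ranges over the arrays of 1 or less on the log2 scale. These ranges overlap, so the 3 genes are not ordered. Sema6c stood apart from them at -0.04, 0.44 and 0.94, below the lowest value of each. In class 4, Sema4f had log2 ratios of 1.88, 2.30 and 2.58 and Sema4a of 1.55, 2.02 and 2.26. Sema4g crossed the threshold on some arrays only, with 0.11, 1.03 and 1.5, and was among the members with the widest ranges of those measured in both dyes. The rest of the class stayed closer to 0, with Sema4d at 0.31 to 0.98, Sema4b at -0.50 to 0.85 and Sema4c at -1.22 to -0.64. Neither class 5 gene reached 2-fold by its brightest probe, with medians of 0.58 for Sema5a and 0.40 for Sema5b. Sema7a, a semaphorin anchored in the membrane by a lipid, was higher at 1.71, 2.09 and 2.50.

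Of 9 plexins, 5 were higher and Plxnb2 alone was lower, and all 9 were well above background in both dyes on every array. With normexp no plexin was at least 2-fold higher on every array. Plxna2, a receptor for class 6 semaphorins and, with neuropilins, for class 3, was at 3.34, 3.75 and 4.17, a range that overlaps that of Plxnb3. The B plexins were split. Plxnb3 (3.28, 3.58 and 3.99) and Plxnb1 (2.50, 3.02 and 3.58) were higher in the hemibrain RNA, and Plxnb2 was lower at -2.20, -1.80 and -1.39. No array brought Plxnb2 within 4 log2 units of either. Plxnc1, the receptor of Sema7a, was at 2.81, 3.15 and 3.61, and Plxna4 at 1.47, 1.67 and 2.03. Plxna3, Plxnd1 and Plxna1 had medians of 0.34, 0.13 and -0.15 and stayed within 2-fold on every array.

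Both neuropilins lay toward the Cy-3 RNA. Nrp2 was lower at -1.92, -1.45 and -1.10 on 8 arrays. Nrp1 ran from -1.40 to 0.02 with a median of -0.70, a range of 1.42 that placed it among the widest of the members measured in both dyes.

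The Eph receptors reached further from 0 in both directions than their ligands. Of 9 EphA receptors 4 were higher and 2 lower, and of 5 EphB receptors 2 were higher and 1 lower. Epha4, a receptor of both ephrin-As and ephrin-Bs that is well known in hippocampus and corticospinal tract, had log2 ratios of 5.04, 5.38 and 5.87, and Ephb1 of 5.55, 6.05 and 6.56. At the median these are 41.5-fold and 66.1-fold. At the other end were Epha2, common in epithelia, at -3.86, -3.63 and -3.31, and Ephb4, a receptor of veins, at -2.98, -2.45 and -2.26. Within either class the highest and lowest receptor were separated on every array by more than 7 log2 units, by brightest probes on the processed signals. A second Epha4 probe reached at most 2.80. With the floor the medians of Ephb1 and Ephb4 were 4.87 and -1.71. With normexp Ephb1 was no longer higher and Ephb4 no longer lower on every array.

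To place these 4 receptors beside their genes, the 200 bases before each start site are shown from RefSeq (build GRCm38.p6), 5′ to 3′ on the strand of the gene, with every CG dinucleotide in capitals.
Epha4, chr1:77515089-77515288, minus strand: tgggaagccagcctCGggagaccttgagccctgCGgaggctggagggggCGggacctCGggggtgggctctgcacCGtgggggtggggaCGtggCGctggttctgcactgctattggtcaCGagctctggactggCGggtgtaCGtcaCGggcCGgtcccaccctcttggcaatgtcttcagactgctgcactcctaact
Ephb1, chr9:102354694-102354893, minus strand: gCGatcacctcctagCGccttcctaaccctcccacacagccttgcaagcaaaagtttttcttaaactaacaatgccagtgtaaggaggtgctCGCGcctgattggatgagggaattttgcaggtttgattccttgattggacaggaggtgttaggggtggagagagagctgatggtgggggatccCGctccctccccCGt
Epha2, chr4:141301021-141301220, plus strand: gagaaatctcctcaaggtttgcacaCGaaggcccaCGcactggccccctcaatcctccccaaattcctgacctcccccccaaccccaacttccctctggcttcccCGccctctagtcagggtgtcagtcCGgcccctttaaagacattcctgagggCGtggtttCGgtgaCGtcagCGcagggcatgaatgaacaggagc
Ephb4, chr5:137349909-137350108, plus strand: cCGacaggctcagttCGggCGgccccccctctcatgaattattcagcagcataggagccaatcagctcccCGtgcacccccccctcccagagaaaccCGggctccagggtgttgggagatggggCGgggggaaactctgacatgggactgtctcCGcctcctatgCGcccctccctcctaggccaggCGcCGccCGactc
The higher receptors carried 12 (Epha4) and 6 (Ephb1) CG dinucleotides here and the lower ones 8 (Epha2) and 11 (Ephb4), so the CG count did not order these 4 genes by direction.

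Over the wider windows of 250 bases before and 50 bases after the start, 61 of 71 members had an entry, with 76 windows in all. The median window of a member held 18.5 CG dinucleotides and 64.2% G and C, beside 15 and 58% over 18258 windows of named genes. GGGCGG, the letters of a GC box, was found on either strand in 53 of 76 windows (69.7%), beside 51.0% of windows of named genes and 35.7% of all 32851 windows, and TATAAA in 2 (2.63%), beside 11.4% and 13.6%. GGGCGG occurred in 20 of 28 windows of higher members (71.4%), in 11 of 12 windows of lower members (91.7%) and in 22 of 36 windows of the others (61.1%). These are descriptions of letters, with several windows for 11 of the genes, and neither a binding site nor a reason for a ratio was tested.

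The other EphA receptors filled the space between Epha4 and Epha2. Epha5 had log2 ratios of 4.61, 5.09 and 6.61 and Epha10 of 3.63, 5.08 and 5.86, ranges that overlap that of Epha4. Only 4 arrays gave Epha10 a Cy-3 signal clear of background, against 10 for Epha4. Most Epha10 ratios thus rest on dim Cy-3, and its place beside Epha4 is uncertain. Epha7 was at 2.52, 3.47 and 3.63. Epha3 and Epha6, with medians of 2.72 and 2.25, were dim in Cy-3 on every array, with bounds of at least 1.96-fold and 1.95-fold higher in Cy-5. Epha8 took both signs, from -1.65 to 1.18. Epha1, like Epha2, was lower, at -2.23, -1.53 and -1.32. Among EphB receptors, Ephb6, whose kinase is inactive, was higher at 1.00, 1.82 and 2.23. Ephb3 (0.20 to 1.1) and Ephb2 (-0.68 to -0.12) stayed closer to 0, without overlapping each other.

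Among the ephrins, Efnb3 was the only one at least 2-fold higher on every array and Efna1 the only one lower. Efnb3, the ephrin of the spinal midline, had log2 ratios of 2.93, 3.39 and 3.82, and Efna1 of -1.75, -1.51 and -1.17. The other ephrin-Bs were at 0.48, 0.94 and 1.26 (Efnb2, on 8 arrays) and at -0.20, 0.13 and 0.46 (Efnb1), so the 3 ephrin-Bs were ordered without overlap by their brightest probes, though a second Efnb2 probe gave -1.21. The ephrin-As covered a narrower span. Efna2 lay between 0.09 and 1.35, Efna5, a guidance cue of retinal axons, between -0.50 and 0.22, and Efna4 between -1.66 and -0.62.

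In the netrin pathway the receptors Dcc and Unc5a stood at the top. Dcc had log2 ratios of 4.67, 6.16 and 7.0, with no array well above background in Cy-3, so that the ratio was at least 19.4-fold higher in Cy-5. Unc5a, measured in both dyes, had 5.64, 6.13 and 7.79, a median of 69.8-fold. Unc5c was higher at 2.72, 3.31 and 3.47, and Unc5d lay between 0.33 and 1.35 on 9 arrays. Unc5b, the member of the family known from vessels, went the other way at -1.98, -1.63 and -0.98, missing the threshold on array C10-434 alone. Unc5b did not overlap with any of the other 4.

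The netrins were spread over both directions. Ntng1, a membrane-anchored netrin-G of thalamic axons, had the highest median ratio of all members by brightest probe. It was at 6.73, 7.61 and 8.05 on the 7 arrays that gave a value, 5 of them well above background in Cy-3. Ntn3 was higher at 1.49, 1.75 and 1.96. Ntn1, the classic attractant for commissural axons, varied with no common direction, from -0.67 to 1.66 with a median of 0.73. Ntn5 ran from -0.20 to 1.31. Ntn4, a netrin of basement membranes, was the lowest at -3.74, -2.75 and -1.40, but its Cy-5 signal was dim on every array and its bound was at least 1.64-fold lower. Ntng2, dim in Cy-5 on all arrays and in Cy-3 on 6, had no bound.

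Of 4 Robos 3 were higher and none lower, while of 3 Slits none was higher and Slit3 was lower. With normexp no Robo was at least 2-fold higher on every array, and Slit3 was no longer lower. Robo4, known from endothelium, had log2 ratios of 3.65, 4.49 and 4.96, Robo3 of 3.12, 3.60 and 4.15, and Robo1 of 2.06, 2.48 and 2.66. Robo1 did not overlap with either by their brightest probes, though a second Robo3 probe (2.52, 2.80 and 3.69) overlapped it. Robo2 reached 5.51 and had a median of 3.96, but fell to 0.38 on the dim array C10-434, and with its Cy-3 signal not well above background its ratio was at least 5.31-fold higher in Cy-5. Slit3 was at -1.72, -1.35 and -1.10, Slit2 at -1.89, -1.41 and -0.56, and Slit1, the Slit most restricted to neurons, at 0.14, 0.72 and 1.49. Slit1 was above the other Slits on every array.

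The name matches went their own ways. Unc50 had log2 ratios between -0.05 and 0.62 on 7 arrays. Unc5cl was dim in Cy-5 on every array, with a median of -3.16 and a bound of at least 1.73-fold lower.

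Genes that act beside or below these receptors were counted from a list of 56, of which 55 had a value. Of these 18 (32.7%) were higher in Cy-5 on every array, beside 16.5% of named genes, and 3 (5.45%) were lower, beside 15.6%, with a median log2 ratio of 0.72. The higher genes included the adhesion molecules Chl1 (8.02, 9.35 and 10.58), Cntn1 (7.18, 7.54 and 9.27) and Nrcam (3.97, 4.20 and 4.44 on 9 arrays), and 3 of the 5 collapsin response mediators, Crmp1 (5.17, 5.47 and 6.83), Dpysl4 (6.15, 6.67 and 8.42) and Dpysl2 (2.25, 2.77 and 3.26). Their relatives Dpysl3 (-0.54, -0.39 and 0.03) and Dpysl5 (-0.23, 0.30 and 1.24) were neither higher nor lower on every array. Chn1, a Rac regulator below Epha4, was at 6.70, 7.30 and 7.77 on 8 arrays, and Srgap1, which acts below Robos, at 5.38, 5.92 and 6.56. Lower were Rhod (median -3.67), Rock2 (-2.12) and Fer (-1.79). The other 34 did not reach 2-fold on every array. Among them were the GTPases Rhoa (-1.18, -0.68 and -0.19), Rac1 (0.76, 1.24 and 1.55) and Cdc42 (-1.55, -1.28 and -0.90).

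Several genes were read by more than one probe, and those probes often differed. Of 31 such members, 21 had probes whose median log2 ratios differed by more than 1 and 14 by more than 2. In 10 genes the probes differed in being higher, lower or neither. The same counts were not taken over other named genes, so it is open whether the members differ from them in this. Ntng1 had the widest gap, since its second probe, dim in Cy-3 on every array and above background in Cy-5 on 2, had a median of 2.07 in place of 7.61. For Epha7 the brightest probe gave 3.47 and the other, A_52_P306236, gave 7.89 with Cy-3 dim on every array. Some gaps lay between probes bright in both dyes. Epha4 probes gave 5.38 and 2.61, Plxna2 probes 3.75, 2.91 and 1.51, and Plxnc1 probes 3.15 and 0.54. The 2 dimmer probes of Sema5b, with medians of 2.55 and 3.00, were at least 2-fold higher in Cy-5 on every array, while the brightest gave 0.40.

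Direction itself depended on the probe in 3 genes with probes above background in at least one dye on every array. Efnb2 probes had medians of 0.94 and -1.21, Sema3e probes 1.24 and -0.45, and Plxna3 probes 0.34 and -0.18. Sema3f was lower by one probe (-2.12) and not by the other (-0.43), and Nrp1 was lower by its dimmer probe (-2.03) and not by its brightest (-0.70). Sema3a was lower by both, at -1.93 and -4.32. The remaining genes past 2 log2 units were Sema6d (3.17 and 0.48), Sema5a (0.58 and -1.68), Epha3 (2.72 and 0.52), Epha5 (5.09 and 2.92) and Sema6a (3.28 and 1.11), each with a second probe that was dim in at least one dye on some or all arrays. Which transcripts each probe covers was not examined here.

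**Figure D3:**
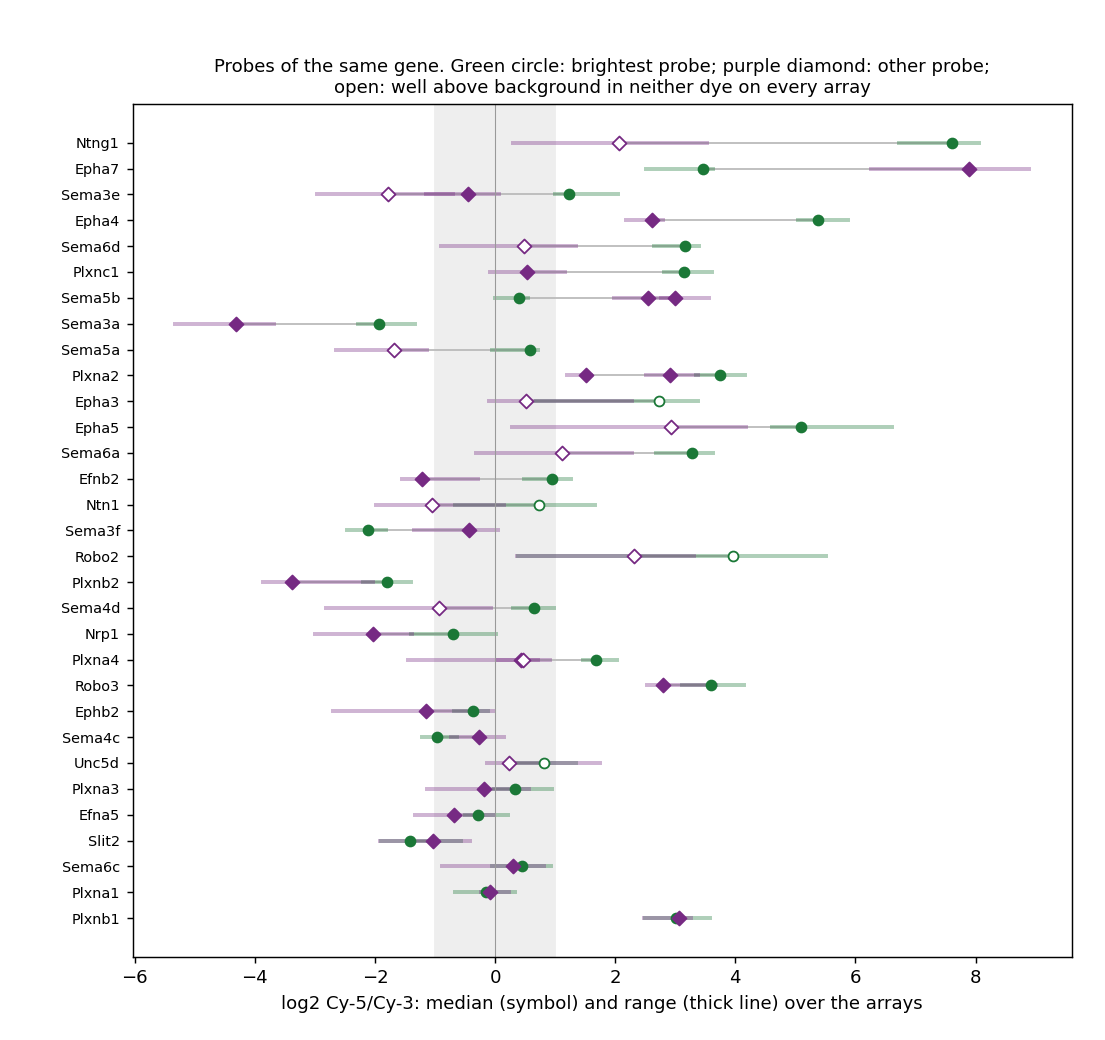
Median (symbol) and range (thick line) over the arrays of the log2 ratio, Cy-5 over Cy-3, for every probe of the 31 members with several probes, in order of the gap between their probes. Green circles are the brightest probe of each gene and purple diamonds the others, and open symbols mark probes well above background on every array in neither dye. Ntng1 (7.61 and 2.07) stands at the top, and the grey band holds ratios within 2-fold.

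The members varied between arrays about as much as other genes. The range of a member over the arrays had a median of 0.96 log2 units, beside 0.97 for all named genes, and for those measured in both dyes 0.82 beside 0.78. The widest ranges among members measured in both dyes belonged to Unc5a, Nrp1, Sema4g, Slit1 and Slit2. For Unc5a the range of 2.15 rested on array C10-434 and was 0.66 without it. Without that array Nrp1 (1.42), Slit2 (1.33) and Sema4g (1.27) had the widest ranges. Array C10-434 gave the highest value of 19 members (26.8%, beside 18.1% of named genes) and the lowest of 15 (21.1%, beside 15.8%). In 7 members (9.86%, beside 10.4% of named genes) a single array lay apart from the rest by Dixon's gap test, in 5 of them this one. Cy-5 was dim on this array. Without it, the range of 5 of 37 members followed in detail (Epha3, Epha5, Robo1, Sema5a and Unc5a) moved by more than the spread between arrays, and that of the other 32 did not.

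On the processed signals, array C10-423 stood out for the members as a group. There 49 of 71 members lay below their own median (69.0%, beside 51.8% of named genes), and 18 had their lowest value (25.4%, beside 16.2%). The median deviation of the members was -0.21 log2 units on this array and between -0.06 and 0.09 on the others, while over all named genes it was -0.01 on this array. Netrins (-0.67), Slits (-0.36), semaphorins (-0.34) and EphB receptors (-0.32) were lowest, and neuropilins (0.11) and Robos (0.04) lay above 0. Plxnd1, Ephb6 and Sema6b had their lowest values there, and Dcc (7.0), Robo2 (5.51) and Slit2 (-0.56) their highest. The deviation was -0.20 with loess, -0.12 with median centring and -0.14 with a floor on the background-subtracted signal, but 0 with normexp, where 35 of 71 members lay below their median (49.3%). Which array stood apart depended on the background correction. With normexp the lowest were C10-413 (-0.34, with 70% of members below their median) and C10-415 (-0.17, 69.0%), and with the floor C10-437 had 64.3% of members below, against 56.3% on C10-423. Cy-5 was not dim on this array, with 76.9% of probes well above background.

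**Figure D4:**
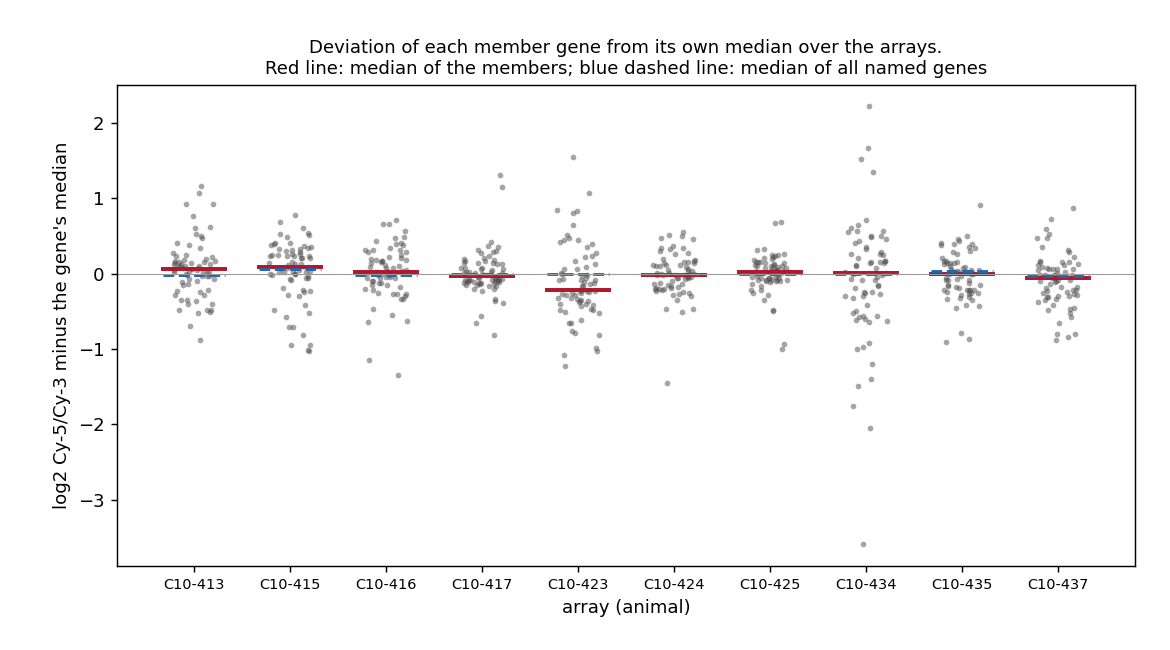
Difference in log2 ratio between each member and its own median over the arrays, 1 point a gene, for each of the 10 arrays on the horizontal axis. The red line is the median of the members and the blue dashed line that of all named genes; on C10-423 they lie at -0.21 and -0.01, and on C10-434 the points spread furthest.

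Sema4b, Slit1, Plxnd1, Efnb3, Efna5 and Efna4 are among the genes of interest of the study, which were chosen on a comparison of diets. Over the arrays Efnb3 was always above the Cy-3 RNA, with 2.93 on C10-435 and 3.82 on C10-416. Slit1 was highest on C10-413 (1.49) and lowest on C10-434 (0.14). Both were above 0 on every array, and Efna4 was below 0 on every array, from -1.66 on C10-413 to -0.62 on C10-434. Sema4b (-0.50 on C10-437 and 0.85 on C10-416), Plxnd1 (-0.62 on C10-423 and 0.51 on C10-416) and Efna5 (-0.50 on C10-413 and 0.22 on C10-434) took both signs. With the diet of the arrays open, no difference between diets is given for them.

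Slides, the batch the files show, were compared on 2 slides that held 4 arrays each. No member was called by limma at an adjusted p under 0.05 among 101 probes of 69 members, beside 0.0744% of 40299 probes, and 7 member probes (6.93%) had an unadjusted p under 0.05, beside 10% of all probes. Ntng2 came closest, higher by 1.19 on the slide of C10-424, C10-425, C10-434 and C10-435 (SE 0.26, limma adjusted p = 0.136), though dim in Cy-5 on all arrays. Dcc had a mean log2 ratio of 6.42 on the slide of C10-415, C10-416, C10-417 and C10-423 and of 5.30 on the other, a difference of -1.12 (SE 0.29, limma adjusted p = 0.193), with Cy-3 dim on all arrays. Efna4 went from -1.37 to -0.78 (difference 0.59, SE 0.15, limma adjusted p = 0.195). None of these differences passed the threshold, and slide and animal cannot be told apart in them. Arrays are of separate animals, and the diets of the arrays on each slide are open.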

How the data were processed

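The authors deposited 10 dual dye arrays as the output of Feature Extraction (version 10.10.1.1). The deposited signals of each dye are linear intensities, which the software had background-corrected and dye-normalized (linear and lowess) to give the processed signals, and the deposited log ratio is on a log10 scale, Cy-5 divided by Cy-3. The deposited value table proved to hold log2 ratios of the same arrays. Flags of other kinds (well above background, outlier, saturated) were used as deposited. From the processed signals log2 Cy-5/Cy-3 was computed, without control and outlier spots, as a mean over each probe's spots. A probe counted as well above background where at least 0.5 of its spots had the flag. Probes were named by accession through RefSeq (27198 of 41174, 66.1%), and a gene was read by its brightest probe, with values on at least 5 arrays. Slides were compared with limma 3.58.1 (R 4.3.3) and Benjamini-Hochberg adjustment. On simulated data of 40299 probes for that comparison, 45% of 200 probes changed by 1.5 on the log2 scale were recovered and 5 unchanged probes were called. Other steps used Python 3.11.15. The number of arrays limits the precision, and no depth applies.

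The members, the gene lists and the tests were chosen with earlier results of these data known. Values over the arrays were named by rule for the highest and lowest member of each family above background in at least one dye, the 5 widest ranges among members measured in both dyes, members on the study's list of genes of interest, and genes whose probes differed by more than 2 log2 units. The remaining members were named where their family is described. The alternatives were loess (span 0.3), median centring, normexp or a floor of 0.5 with an offset of 50, the deposited table, all probes of a gene, probes bright in both dyes, other folds and flags, and arrays left out. Normexp was run on median signals. Leaving out C10-423, and normexp in the slide comparison, were added after values were seen.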

Additional observations from a re-analysis of the deposited data

Results flagged for a closer look

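In 7 of 71 members (9.86%) a single array lay apart from the others, its gap to the nearest array, as a share of the whole range over the arrays, exceeding Dixon's critical value. Chance gives this in about 1 in 20 genes, or 3.55 of 71, and on these arrays 10.4% of 18537 named genes met the same limit, so the share of the members was near that of other genes. Without array C10-434 it was 2 of 71 members (2.82%), beside 6.31% of named genes. Of the 7 cases, 5 were on array C10-434, whose Cy-5 signal was dim. There Unc5a was high, with a gap of 0.695 of its range (7.79, median 6.13), Epha5 was high with a gap of 0.518 (6.61, median 5.09), and Unc5cl was high with a gap of 0.589 (-0.94, median -3.16). Robo2 was low on the same array with a gap of 0.498 (0.38, median 3.96), as was Sema5a with a gap of 0.536 (-0.05, median 0.58). Sema3b was high on array C10-415, with a gap of 0.554 (-0.07, median -0.76). Slit2 was high on array C10-423, with a gap of 0.514 (-0.56, median -1.41).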

How the results depend on the processing

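No member turned from higher to lower or back under the 12 settings run on these counts. Leaving out an array or changing the fold could not turn one, since the ratios stayed the same. The deposited table held the same ratios too. With normexp, 7 members were higher and 3 lower (beside 5.89% and 4.34% of named genes), with a median log2 ratio of 0.38. No longer lower were Efna1, Epha1, Ephb4, Ntn4, Sema3a, Sema3c, Sema3f and Slit3. No longer higher were the receptors Dcc, Unc5c, Epha5, Epha7, Epha10, Ephb1, Ephb6, Robo1, Robo3, Robo4, Plxna2, Plxna4, Plxnb1, Plxnb3 and Plxnc1. The ligands Ntn3, Sema4a, Sema4f and Sema6a were no longer higher either. With background subtraction, a floor and an offset of 50, 27 were higher and 4 lower, with a median of 0.52, and the median over the arrays moved by more than the spread between arrays for 16 of 37 named members. Over the 47 members with a probe bright in both dyes 7 were lower. At 4-fold, 2 were lower and 20 higher. Loess (28 higher, 9 lower, Ntn4 and Slit3 being lost), median centring (27 and 13), the deposited table (26 and 11) and the mean of all probes (24 and 10) stayed within 1.5 times of the reported counts. Of named genes 17.8% were higher and 13.5% lower with loess, and 16.4% and 15.6% with median centring. Shares of named genes were not taken for the mean of all probes, at 4-fold or with arrays left out. Without C10-434 there were 28 and 13, with Epha3, Robo2, Unc5b and Unc5cl added. Without C10-437 there were 26 and 11, and without C10-423 26 and 12. No member was called between the slides under the 6 alternatives run there, normexp included, or with any of the 8 arrays left out, where calls over all probes ran from 0 to 68. No paired analysis was possible because the arrays form a single group and the labels pair no arrays. Ratios of members dim in one dye are bounds alone, and the single dye orientation limits every ratio.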
